A study of Drosophila melanogaster with 2 samples.

Results

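The regions described here were the promoter peaks of the CG14014 product whose summit, the highest point of the peak, lay at or past the transcription start site in the direction of transcription. They were taken from the conservative peak list of 3216 peaks on the chromosome arms of build dm6. For each summit the nearest start site of any transcript of a protein-coding gene was found in Ensembl release 115, and a summit was kept if it lay from 0 to 500 bp downstream of that start site. The rule found 277 members, which were 8.61% of the conservative peaks and 17.7% of the 1569 promoter summits, while the other 1292 promoter summits lay upstream. No signal value was used in the choice. The 277 members had 268 different nearest genes, 1.92% of the 13968 protein-coding genes.

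The data were ChIP-seq peak lists from whole Drosophila melanogaster embryos aged 0 to 24 h, made with an antibody against GFP. The transgenic flies, of the strain CG14014-GFP, expressed the CG14014 protein fused to eGFP from an insertion, and both biological replicates belonged to this 1 group. The promoter that drove the fusion and the presence of untagged CG14014 are not stated in the labels. Chromatin was sonicated and the labels give fragment sizes of 200 to 800 bp. No cell type was separated, no expression was measured, the control experiment named as possible in the labels was not used here, and read depth is unknown. The authors' lists from each replicate alone held 4617 peaks in replicate 1 and 2721 in replicate 2 on the chromosome arms.

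Transcription begins at the start site, and the first transcribed stretch is usually a 5′ untranslated region (5′ UTR), often followed by an intron. RNA polymerase II commonly pauses a short way into the gene, and factors can bind in the first intron as well as before the start site. Many Drosophila genes have several alternative start sites, and neighbouring genes often start close together and point away from each other. A site past one start site can therefore lie before another one.

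The sequences of 6 members show how varied the bound stretches were. They are among the 8 strongest members whose whole window overlapped no annotated UTR of any gene, with 1 chromosome arm left out, and stronger members whose window touched a UTR are not shown. Each is 101 bases of the release 6 genome sequence (RefSeq) centred on the summit, written 5′ to 3′ on the strand of the gene, and capitals mark runs of at least 6 bases made only of A and T. All 6 are intronic with no start site ahead within 500 bp, while stronger intronic members not shown, such as mRpL23, have one.
Cftr, chr3R:24543182-24543282, minus strand: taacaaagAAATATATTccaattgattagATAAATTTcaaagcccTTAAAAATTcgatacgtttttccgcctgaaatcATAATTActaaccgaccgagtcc
CG31612, chr2L:21794901-21795001, minus strand: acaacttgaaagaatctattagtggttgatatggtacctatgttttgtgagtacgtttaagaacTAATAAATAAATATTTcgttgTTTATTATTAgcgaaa
CG8128, chrX:15697932-15698032, plus strand: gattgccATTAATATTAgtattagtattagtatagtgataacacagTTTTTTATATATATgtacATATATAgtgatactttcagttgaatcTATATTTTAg
Eip63F-1, chr3L:3928631-3928731, minus strand: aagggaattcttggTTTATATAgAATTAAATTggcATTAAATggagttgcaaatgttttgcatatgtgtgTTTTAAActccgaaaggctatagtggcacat
rudhira, chrX:11818556-11818656, plus strand: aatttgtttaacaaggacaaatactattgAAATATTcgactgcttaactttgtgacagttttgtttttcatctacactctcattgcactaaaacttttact
CG11151, chrX:13740196-13740296, plus strand: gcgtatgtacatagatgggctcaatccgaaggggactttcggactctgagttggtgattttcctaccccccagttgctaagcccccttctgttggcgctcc
CG8128 had 40 of its 101 bases in such runs and a GC content of 21.8%. CG11151 had none and a GC content of 54.5%, although its summit, at +464 bp, had a signal of 244. Runs of A and T were therefore usual but not general. Over all members the median share of the window in such runs was 18.8% (interquartile range 6.93% to 32.7%), and 39 of 277 windows (14.1%) had none. At upstream promoter summits the median was 27.7% (14.9% to 40.6%) and 7.43% of the windows had none. This measure was added after the data were seen and carries no test.

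Summits were scarcer past the start site than before it. Of all bases within 500 bp of a start site, 55.0% lay on the downstream side, 8.45 of 15.4 Mb, but it held 17.7% of the promoter summits. This came to 32.8 summits per Mb downstream against 187 per Mb upstream. The median distance of the members was 80 bp (interquartile range 32 to 172 bp), and 164 members lay within 100 bp of the start site, 59.2% of the members against 22.1% of the downstream bases. The density fell from 124 summits per Mb at 0 to 24 bp to 7.81 per Mb at 200 to 299 bp and was higher again farther in, at 14.2 per Mb at 300 to 399 bp and 15.8 per Mb at 400 to 500 bp. The 2 replicates differed in this share. In the list of replicate 1 alone 27.6% of the promoter summits were downstream, 618 of 2241, and in that of replicate 2 alone 14.9% were, 203 of 1358.

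**Figure D1:**
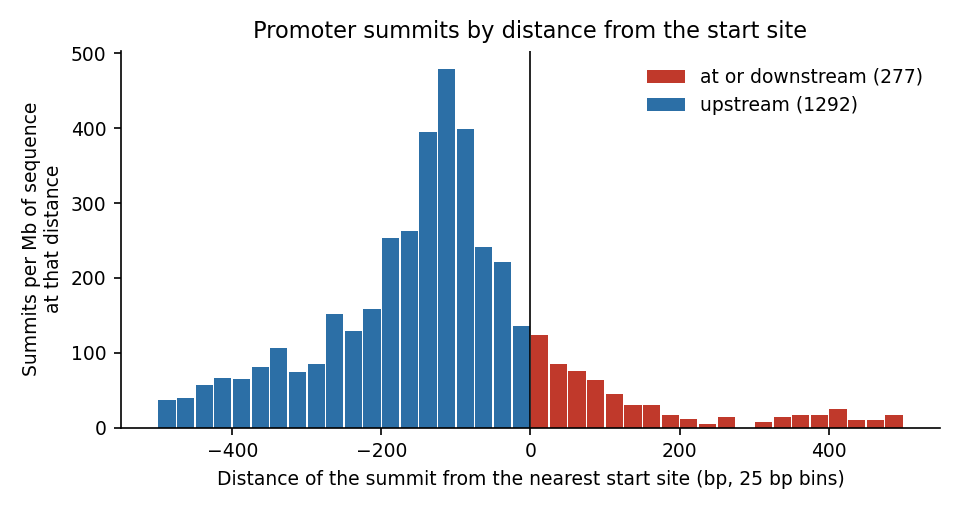
Promoter summits of the conservative list per Mb of sequence at each distance from the nearest protein-coding start site, in 25 bp bins, with downstream summits in red and upstream summits in blue. The density peaks before the start site, continues to fall across it without a gap, and has a low second rise past 300 bp.

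The edges of the rule cut through a continuous spread of summits. The members nearest to the start site were Mpc1, a mitochondrial pyruvate carrier gene, and RpL37A, a ribosomal protein gene, both at 0 bp with signals of 77.8 and 133, and Mfe2, at +1 bp with a signal of 68.3. Just outside lay RpS27 with a signal of 393, CG3085 with 115 and Dp1 with 83.7, all 1 bp upstream. At the far edge the members were CG31612 at +496 bp with a signal of 555, ced-6, an engulfment gene, at +494 bp with 58.8, and pAbp, which encodes a poly(A)-binding protein, at +488 bp with 295. Beyond the edge were CG31259 at +501 bp with a signal of 102, and CG4615 and CG15247 at +507 bp with 141 and 178.

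The side of the start site was less repeatable near the edge. The summits of the overlapping peaks in the replicates' own rankings were both downstream as well for 210 of the 272 members that had one in each, 77.2%, whereas both were upstream for 96.4% of the upstream peaks. Of members within 25 bp of the start site 49.2% were downstream in both replicates, of those at 26 to 100 bp 76.0%, and of those at 101 to 500 bp 93.6%. The median difference between the summits of the 2 replicates was 23 bp for members and 20 bp for upstream peaks. Some neighbouring peaks shared a replicate peak, which concerned 36 members in replicate 1 and 38 in replicate 2. One member lay equally far from the start sites of 2 genes, and roh and eIF2Bdelta could not be told apart there.

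Of the 277 members 147, or 53.1% (95% Wilson interval 47.2% to 58.9%), had a further protein-coding start site ahead of them within 500 bp, so that they were downstream of one start site and upstream of another. Only 14.6% of the downstream bases had one, a share not matched for distance. Members with a start site ahead had a density of 119 per Mb and those without one 18.01 per Mb. Within 100 bp of the start site lay 59.2% of the members and 22.1% of the downstream bases. A site ahead was found for 115 of the 164 members within 100 bp and 5 of the 61 more than 200 bp in. These shares and densities therefore mix closeness to the start site with a site ahead, and were not separated by distance. The site ahead belonged to the same gene alone for 43 members, to another gene alone for 37 and to both for 67, and the remaining 130 members, 46.9%, had none. This split was made after the data were seen, and the values that follow from it carry no test. The median signal was 147 with start sites of both kinds ahead, 135 with one of the same gene, 111 with one of another gene and 101 with none. The GC content of the 101 bp window averaged 30.2% ± 9.32 (SD, n = 67 peaks) with both kinds ahead and 40.8% ± 9.53 (SD, n = 130 peaks) with none. The groups also differed in median distance, 53 bp with both kinds ahead, 44 bp with the same gene, 58 bp with another gene and 168 bp with none. Distance and a start site ahead were not separated in the values of these groups. Without a start site ahead, 88.5% of the members overlapped a peak of the replicate 1 list but 52.3% one of the replicate 2 list, and with any ahead the shares were 85.7% and 78.9%.

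**Figure D2:**
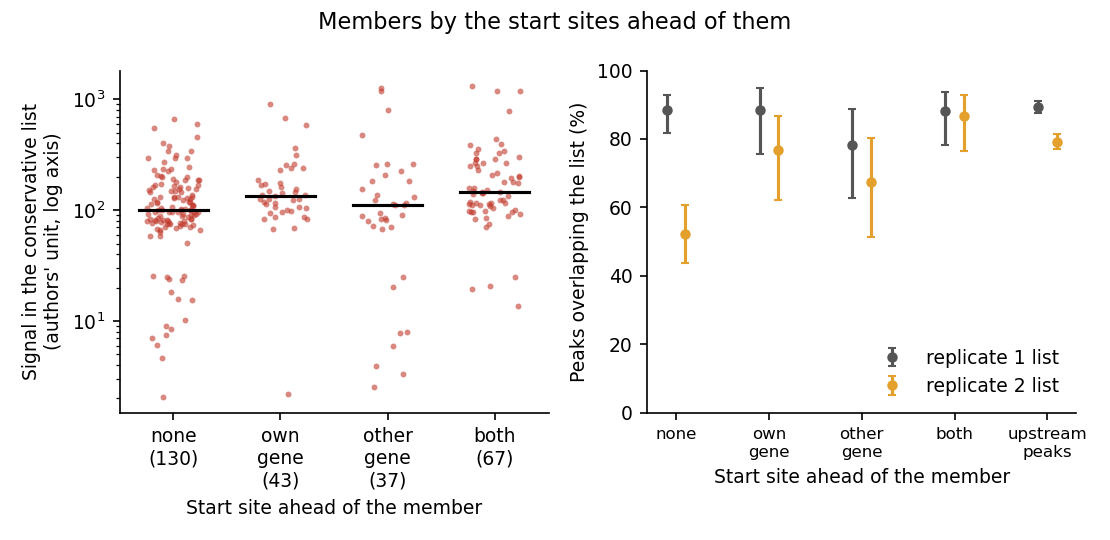
Left, signal of each member in the conservative list (authors' unit, log axis) by the start sites ahead of it within 500 bp, with the median as a bar and the number of members in parentheses. Right, the percentage overlapping the list of each replicate alone, with 95% Wilson intervals, beside the upstream promoter peaks. Members with no start site ahead stand at 88.5% in the replicate 1 list and 52.3% in the replicate 2 list.

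Replicate 1 alone gave 618 downstream summits with a mean GC content of 42.9%, of which 33.8% had a start site ahead, and replicate 2 alone gave 203 with 36.2% GC, of which 59.6% had one. The median distance was 62 bp in the former and 88 bp in the latter. The replicates differed in list length too, and the part of list length in these values was not tested.

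By annotation, 195 members (70.4%, 64.8% to 75.5%) had their summit in a 5′ UTR, 73 (26.4%, Wilson interval 21.5% to 31.8%) in an intron and 9 (3.25%, 1.72% to 6.06%) in coding sequence. Positions at the same distances from all protein-coding start sites were in a 5′ UTR for 63.0%, in an intron for 11.8% and in coding sequence for 24.5%. The intronic members thus made up a larger share, and the coding members a smaller share, than start sites in general. Among the 61 members more than 200 bp in, 46 were intronic (75.4%) against 30.2% of such positions, and 4 were coding (6.56%) against 46.1%. Of the 73 intronic members, 70 lay in the first intron of a transcript that began at the nearest start site. The rule keeps only summits within 500 bp past that start site, so it largely sets this count. The share over all start sites was not worked out, and the count is not read as a result. The other annotation classes held no member. Where transcripts of a gene disagreed, coding sequence and UTR took precedence over intron, and this touched 33 members.

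**Figure D3:**
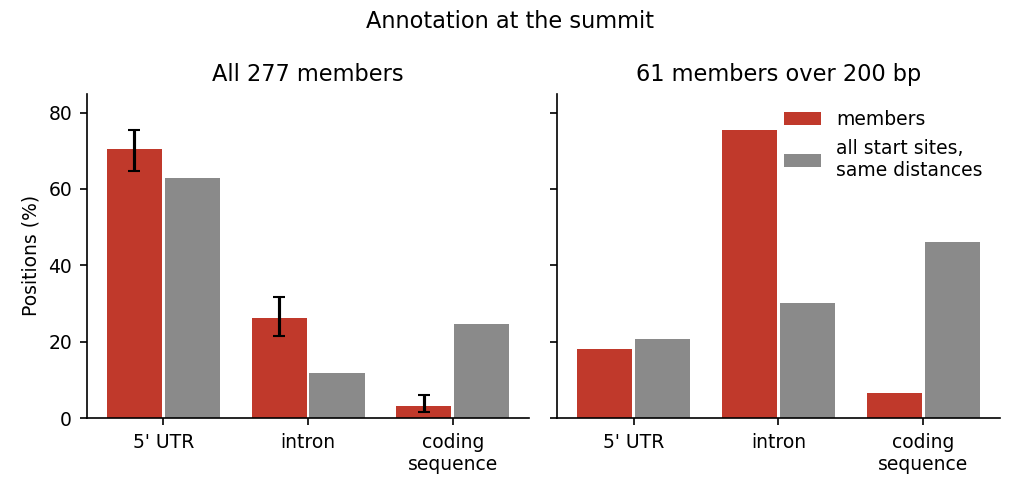
Share of members (red) and of positions at the same distances from all protein-coding start sites (grey) in 5′ UTR, intron and coding sequence, for all members with 95% Wilson intervals and for those over 200 bp in without intervals. Introns hold 75.4% of the far members and 30.2% of the far positions.

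Intronic and 5′ UTR members with no start site ahead are given side by side here, without a test. The 55 intronic ones had a median distance of 353 bp, a median signal of 132, a GC content of 36.0% ± 8.37 (SD, n = 55 peaks) and an overlap with the replicate 2 list in 65.5%. The 68 in a 5′ UTR had a median distance of 62 bp, a median signal of 91.8, a GC content of 43.6% ± 8.25 (SD, n = 68 peaks) and an overlap with the replicate 2 list in 41.2%. The 9 coding members had a median signal of 18.3 and a GC content of 52.4%. The strongest coding members were those of CG44812, with a signal of 146, and Got2, an aspartate aminotransferase gene, with 104.

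Downstream and upstream promoter peaks were compared on 11 properties by Fisher's exact test (two-sided, p-values adjusted over the 11 properties after Benjamini and Hochberg), and 6 of the 11 (54.5%) differed at an adjusted p under 0.05. Peaks are not independent samples, and the p-values say nothing of how embryos vary. Of the members 75.1% belonged to a gene with several annotated start sites, against 49.6% of upstream peaks (odds ratio 3.06, adjusted exact p = 3.97e-14). The odds ratio was 4.89 in the list of replicate 2 alone and 1.83 in that of replicate 1 alone. It was 1.68 where only summits near start sites of 1 gene were kept. For members with no start site ahead it was 1.62, and it passed in each. A further start site of the same gene alone lay ahead of 43 members, and both kinds ahead of 67. These members are in genes with several start sites by definition, so the rule partly sets the main comparison. With 1 start site per gene the odds ratio was 6.75 and passed, but summits before a dropped start site can then count as downstream. This occurs only in genes with several start sites, so no conclusion is drawn from it. Such genes held 41.4% of the downstream and 43.6% of the upstream bases within 500 bp of a start site.

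Members were less AT-rich than upstream peaks, as downstream positions were than upstream positions at start sites in general. Their GC content averaged 38.1% ± 10.4 (SD, n = 277 peaks) against 33.4% ± 10.1 (SD, n = 1292 peaks), and positions at the same distances from all start sites averaged 44.1% and 39.2%. The GC content was below the median of all conservative peaks, 31.7%, in 27.4% of members and 47.5% of upstream peaks (odds ratio 0.418, adjusted exact p = 3.46e-09). It was lower at the summit than 300 bp to either side in 44.8% of members and 63.2% of upstream peaks (odds ratio 0.471, adjusted exact p = 8.90e-08). Mean GC content differs by side in the same direction at all start sites, and the flank comparison was not made there. These tests therefore cannot tell a property of the peaks from their position, and no conclusion on the peaks is drawn from them. In members with a start site ahead the GC content reached 33.9% next to the summit. It was nearly as low, 34.8%, at -210 bp from the summit, with 42.0% between them at -70 bp. Members without a start site ahead fell from 45.9% at -70 bp to 39.5% just past the summit. Their GC content was lower still farther before the summit, 38.9% at -250 bp and 37.3% at -330 bp. The summit was therefore not their lowest point.

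**Figure D4:**
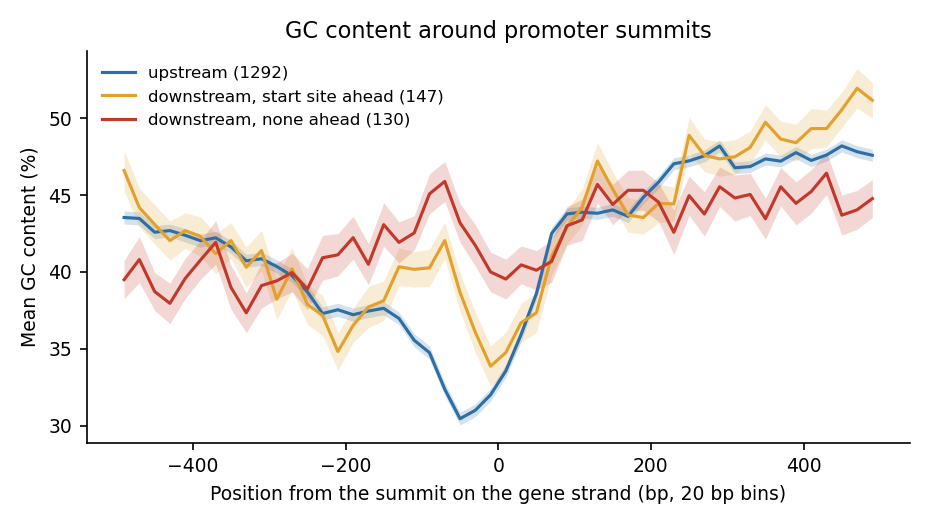
Mean GC content in 20 bp bins around the summit on the gene strand, with bands of 1 standard error over peaks, for upstream promoter peaks, members with a start site ahead and members with none. Upstream peaks reach 30.5% and members with a start site ahead 33.9%. Members with none are at 39.5% just past the summit and lower, at 37.3%, at -330 bp.

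Members were weaker than upstream peaks. The median signal was 116 against 142, and 128 in the whole list. The signal was above the median of the list in 44.0% of members and 57.0% of upstream peaks (odds ratio 0.595, adjusted exact p = 0.000242), and 7.58% of members against 13.2% were among the 300 strongest peaks (odds ratio 0.538, adjusted exact p = 0.0154). Neither difference passed in the list of replicate 2 alone (odds ratios 0.717 and 0.761, adjusted exact p = 0.0801 and 0.489) or with the global irreproducible discovery rate (IDR) of the peaks limited to 0.001 (odds ratios 0.848 and 0.665, adjusted exact p = 0.644 and 0.244). The share among the 300 strongest also missed the threshold with start sites of all annotated genes (adjusted exact p = 0.0544) and with 1 start site per gene (adjusted exact p = 0.105). Of the members 14 had a signal under 10, and 13 of these overlapped another conservative peak. A signal under 10 was also found at 17 of the 1292 upstream peaks and 63 of all 3216 conservative peaks. Another conservative peak was overlapped by 39 of the 277 members, 82 upstream peaks and 243 of all conservative peaks. These counts were not tested.

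The members were found in both single-replicate lists in 163 of 277 cases, in replicate 1 alone in 78, in replicate 2 alone in 21 and in neither in 15. The list of replicate 2 overlapped 66.4% of members, 79.3% of upstream peaks and 72.9% of all conservative peaks (members against upstream, odds ratio 0.518, adjusted exact p = 2.57e-05). The list of replicate 1 overlapped 87.0% of members, 89.4% of upstream peaks and 87.2% of all conservative peaks, and the difference by side did not pass (odds ratio 0.794, adjusted exact p = 0.338). With peaks limited to a global IDR of 0.001 the difference in replicate 2 did not pass either (odds ratio 0.576, adjusted exact p = 0.366).

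The remaining properties did not separate the sides at this threshold. Chromosome X held 19.5% of members and 14.4% of upstream peaks (odds ratio 1.44, adjusted exact p = 0.0545), and 16.8% of the downstream and 17.05% of the upstream bases. With peaks limited to a global IDR of 0.001 the difference passed (odds ratio 1.79, adjusted exact p = 0.0336). Start sites of several genes lay within 500 bp of 37.9% of members and 39.2% of upstream peaks (odds ratio 0.945, adjusted exact p = 0.808), and in the list of replicate 1 alone the odds ratio was 0.634 (adjusted exact p = 3.2e-05). The nearest gene had an intron for 95.7% of members and 94.3% of upstream peaks. Only 1 member and 7 upstream peaks were wider than the median width of 330 bp. As 2151 of the 3216 conservative peaks were exactly 330 bp wide, this property could hardly separate the sides. Of the 277 members 196 had that width, and of the 1292 upstream peaks 818, which was not tested. Among members, 65 lay on arm 3L, 54 each on 3R and X, and 52 each on 2L and 2R.

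**Figure D5:**
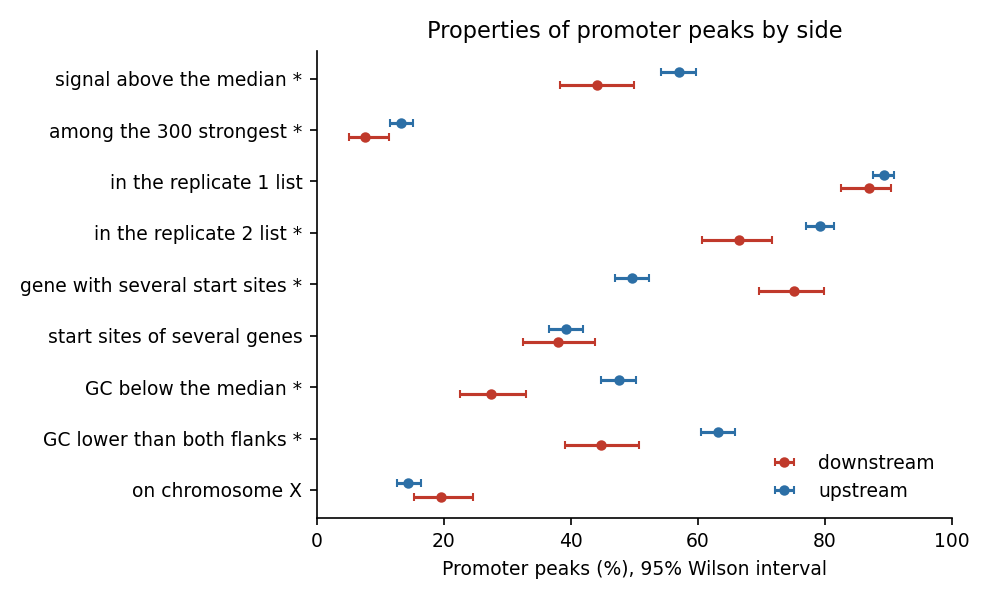
Percentage of downstream (red) and upstream (blue) promoter peaks with each of 9 of the 11 properties, with 95% Wilson intervals over peaks, which cover counting error only. Asterisks mark an adjusted p under 0.05 by Fisher's exact test. The widest gap is in genes with several start sites, 75.1% against 49.6%, a property that the rule partly sets.

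Short sequence words were compared in the same windows on both strands, and 0 of 24 (0%) differed between the sides by Fisher's exact test at an adjusted p under 0.05, with 4 at an unadjusted p under 0.05. The word TTAAAA was present at 31.8% of members and 39.2% of upstream peaks (odds ratio 0.723, adjusted exact p = 0.177). Windows at the same distances from all start sites also differed by side, with 13.95% for the members' distances and 23.4% for the upstream ones. The core promoter motif 7 of Ohler was present at 4.69% of members and 9.75% of upstream peaks (odds ratio 0.456, adjusted exact p = 0.0836). In the windows from all start sites it was present at 5.15% and 5.33%. The TATA box word TATAAA was found at 16.6% of members and 22.6% of upstream peaks, against 10.3% and 17.3% of the windows from all start sites. CGATA, the word bound by BEAF-32 and a part of the DRE, was found at 15.9% and 19.7%, against 15.6% and 18.3% of these windows. The DRE itself, TATCGATA, was found at 2.53% and 3.41%, against 1.23% and 2.29%. TTAAAA and TATAAA can overlap each other in A and T runs. The count of words past the threshold depended on the list, with 8 in that of replicate 1 alone and 0 in that of replicate 2 alone.

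Motif 1 of Drosophila promoters, GGTCACAC, which is bound by the factor M1BP and is known from ribosomal protein promoters, was present at 9 members (3.25%) and 12 upstream peaks (0.929%), with an odds ratio of 3.58 and an adjusted exact p of 0.0836. The odds ratio was 1.72 in the list of replicate 2 alone and 1.57 in that of replicate 1 alone, and the word passed with 1 start site per gene (6.66, adjusted exact p = 0.00118), in the optimal list (2.24, adjusted exact p = 0.0404) and in windows of 100 bp to each side (2.50, adjusted exact p = 0.0233). With 1 start site per gene, summits before a dropped start site can count as downstream, so no conclusion is drawn from that setting. The word was found in 1.79% of windows at the members' distances from all start sites and in 1.44% at the upstream distances. Several of the 9 members were ribosomal protein genes, and 4 of these sites are printed because they place the word against the start site. They were chosen after the values were seen, and each has 10 bases to either side of the word, which is in capitals, on the strand of the gene.
RpL7, chr2L:10200980-10201007, plus strand: tccgcggccaGTGTGACCgtttggccga
RpL30, chr2L:19009262-19009289, minus strand: tccccccgtcGGTCACACcaacacaaac
RpL27A, chr2L:4458331-4458358, minus strand: gccgccgggcGGTCACACtgctacaacc
RpL37A, chr2L:5070980-5071007, plus strand: atcgagcggcGGTCACACttttcgctct
At RpL7 the word was on the opposite strand. Its first base in this reading lay 14 bp before the start site at RpL7, 10 bp before it at RpL37A, 16 bp past it at RpL27A and 27 bp past it at RpL30.

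The 25 strongest members carried signals from 340 to 1318 and ranked between the 18th and the 336th of all conservative peaks. All 25 overlapped a peak in each single-replicate list, and in 24 both replicate summits were also downstream. A start site lay ahead of 17 of them, and the other 8 all lay more than 190 bp in. In total 3 members were among the 25 strongest peaks of the whole list and 10 among the 100 strongest. Members made up 8.61% of the list, so these counts were near their share and are not read as a result. Of the upstream peaks 14 and 58 were among them.

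The strongest member was at Chro, which encodes Chromator, a chromodomain protein of interbands and the spindle matrix. Its summit lay at +87 bp in the 5′ UTR, on chr3L:22878747-22879047 (FBgn0044324), with a signal of 1318 in the conservative list. The replicates' own rankings gave it 622 (replicate 1) and 696 (replicate 2). It was also upstream of Ssl1, which encodes a subunit of TFIIH. The next was CG8320 at +89 bp, in an intron, with a signal of 1267, 590 in replicate 1 and 693 in replicate 2, and Pex11ab, a peroxisome gene, ahead. Elp5, an Elongator subunit gene, followed at +45 bp with a signal of 1186, 667 in replicate 1 and 528 in replicate 2. The member of mRpL23, a mitochondrial ribosomal protein gene, at +84 bp had a signal of 1180, 619 in replicate 1 and 566 in replicate 2. At CG9147 the summit was at +25 bp and Fbw5, an F-box gene, lay ahead. There the signal was 1178, 695 in replicate 1 and 487 in replicate 2, and the replicate 2 summit fell 1 bp upstream of the start site. These 5 strongest members all lay between start sites.

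The next members in order were GstE13, a glutathione transferase gene, with a signal of 916 at +70 bp, tank with 799 at +141 bp, CG8360 with 781 at +62 bp and CG18622 with 682 at +198 bp. They too had a start site ahead. The tenth was ph-p, a Polycomb group gene, at +478 bp with a signal of 671, 324 in replicate 1 and 350 in replicate 2. It lay in a 5′ UTR with no start site ahead, and a second peak 499 bp upstream of a ph-p start site had a signal of 1635. Cftr at +193 bp with 604, CG31612 at +496 bp with 555, CG8128 at +477 bp with 458 and scramb2, a scramblase gene, at +353 bp with 405 were intronic with none ahead. So were egh, a glycosyltransferase gene, at +368 bp with 382, wun, a lipid phosphate phosphatase gene, at +403 bp with 343, and Eip63F-1, a calcium-binding protein gene, at +482 bp with 342.

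The remaining members among the 25 lay near their start site with another one ahead. They were CG9399 with a signal of 587, Trmt6, a tRNA methyltransferase gene, with 477, RpL7 with 438, E(z) with 399, CG8892 with 391, CG2811 with 364, pre-mod(mdg4)-E, one of the trans-spliced segments of mod(mdg4), with 353 and muskelin with 340. E(z), at +115 bp, had the lowest GC content of the 25, 11.9%, and RpL7, at +22 bp, the highest, 62.4%.

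Cytoplasmic ribosomal protein genes were the list with the most members, 18 of 92 genes (19.6%) against 1.92% of all protein-coding genes. Of the 92 genes 34 had an upstream peak, for which the share over all genes was not worked out. Counts for this and the other lists are descriptions without a test. All 18 overlapped the replicate 1 list and 12 the replicate 2 list. Their summits lay at 0 to 173 bp with a median of 17 bp, 17 of 18 in the 5′ UTR, and 11 had a start site ahead. Their GC content averaged 48.5% ± 6.36 (SD, n = 18 peaks), and 12 of 18 windows held the pyrimidine-rich TCT initiator word, which was found at 16.97% of all members. The signals ran from 8.40 at RpS28b to 438 at RpL7 with a median of 128. RpL7 had 289 in replicate 1 and 156 in replicate 2, RpL30 173 and 85.7, RpS15Aa 103 and 70.9, and RpL31 105 and 75.4. Most of these summits lay within the 25 bp where 49.2% of members were downstream in both replicates.

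The counts of the lists that follow stand against the 1.92% of all protein-coding genes with a member. Of 21 Polycomb group genes 3 had one (14.3%). Besides ph-p these were E(z), the methyltransferase of histone H3 lysine 27, with a signal of 399, 210 in replicate 1 and 188 in replicate 2, and Su(z)12, a partner of E(z), at +157 bp with 114, 49.97 in replicate 1 and 71.6 in replicate 2. Su(z)12 was absent from the thresholded list of replicate 1. The summits of E(z) and Su(z)12 also lay before a start site of another gene. Of 23 insulator and architectural genes 2 had one (8.70%), Chro and Trl, which encodes the GAGA factor and is also in the trithorax list. The Trl summit lay at +121 bp with a signal of 297, 163 in replicate 1 and 135 in replicate 2.

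RNA processing genes had members at 3 of 44 (6.82%), all intronic and far in, with no start site ahead. They were pAbp at +488 bp, Sxl, the splicing regulator of sex determination, at +415 bp with a signal of 187, and shep, an RNA-binding protein gene, at +304 bp with 91.8. Translation factors had 2 of 39 (5.13%), pAbp and eIF3h at +322 bp with 185, the latter with a start site of another gene ahead. Dp, the partner of E2F, was the 1 member among 51 cell cycle genes (1.96%, near the share of all genes), at +390 bp in an intron with a signal of 200, and a second peak 224 bp upstream had 419.

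Of 33 genes of the Wingless and Hedgehog pathways 2 had a member (6.06%), dco, a casein kinase gene, at +371 bp with 81.5 and again at +172 bp with 6.07, and Apc2 at +93 bp with 2.05. Of 107 developmental transcription factors 2 had one (1.87%, near the share of all genes), CHES-1-like at +208 bp with 169 and chinmo at +3 bp with 69.8. Further lists had 1 gene each, and such single cases are not read as differences. Mer, the Merlin gene, with 146, was 1 of 21 Hippo pathway genes (4.76%). Nrx-1, the neurexin gene, with 261, was 1 of 48 nervous system genes (2.08%). The nuclear receptor gene Eip75B with 161 was 1 of 21 (4.76%), and the chaperone gene Hsc70-4 with 19.4 was 1 of 29 (3.45%). ND-24, a complex I gene, with 144, was 1 of 39 energy genes (2.56%). The mitochondrial ribosomal protein gene mRpL23 was 1 of 73 (1.37%). Of 55 cytoskeleton and adhesion genes 2 had one (3.64%), and sqh, the myosin light chain gene, had a signal of 238 and if, an integrin gene, 69.7 and 23.5. The lists for the Notch, Dpp and receptor tyrosine kinase pathways, membrane traffic and general transcription held none. These lists had 20 to 54 genes, so with a share of 1.92% over all genes a count of 0 is not read as a difference.

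Of the 268 genes 42 also had an upstream peak in the same list, which gave 46 pairs. The share of all protein-coding genes with an upstream peak was not worked out, so the 42 are not read as a result. The genes if, PGRP-LF, mrt and dco entered more than once with the same upstream peak. The upstream peak was the stronger in 34 pairs and the downstream one in 12. Several downstream peaks of the pairs were weak, down to 2.05 at Apc2, against a first quartile of 83.4 over all members. Of the 14 members with a signal under 10, 13 overlapped another conservative peak. The peaks of a pair need not be separate sites, so the 34 and 12 are a description only. Trmt6 was one of the 12, with a signal of 477 at +80 bp and 113 at 50 bp upstream, and so was Eip63F-1, with 342 at +482 bp and 67.6 at 250 bp upstream. A total of 9 genes had 2 members each. At Cftr the summits at +10 bp and +193 bp belonged to peaks with signals of 114 and 604, and at SCOT, a ketone body enzyme gene, those at +33 bp and +241 bp had 149 and 8.94.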

How the data were processed

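The authors deposited peak lists on build dm6, per the file notes, where neither an aligner nor a caller of peaks is named. Each peak carries the authors' own signal, of unstated scale, which was used only within a list. The ranked list of both replicates carries the −log10 of the global IDR as deposited, and thresholded peaks had an IDR of 0.01 or less. Each replicate alone also had a ranking and a list cut at the threshold. Without read counts depth is unknown, so its effect on precision could not be stated; Wilson intervals (95%) cover counting error only.

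Summits were placed against start sites of Ensembl release 115 on the chromosome arms. GC content and words were read within 50 bp to each side of a summit from release 6, whose arms hold all conservative peaks, and flanks 300 bp away. Overlap meant at least 1 bp. The 2 sides were compared by Fisher's exact test. Replicate values are those of the overlapping ranked peak with the nearest summit. Members, gene lists and words were chosen with earlier results of these data known. Named genes were the 25 strongest members, up to 4 members per list, and the 3 nearest each edge on both sides. One gene is not reported here. Other genes were named after their values were seen. The functions were tested on simulated data. Alternatives covered the list, the IDR, the promoter width, the start sites, merged peaks and the window. Software was scipy 1.17.1 (tests), statsmodels 0.14.6 (intervals), matplotlib 3.10.9, pandas 2.3.3 and numpy 2.4.6 in Python 3.11.15.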

Additional observations from a re-analysis of the deposited data

How the results depend on the processing

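The downstream share, 17.7%, ranged from 14.9% to 27.6% over the lists of single replicates, was 14.7% at a global IDR of 0.001 and stayed between 14.9% and 27.6% in the other alternatives. The intronic share, 26.4%, ranged from 16.7% to 29.6% over these lists, and was 12.5% with a promoter of 200 bp and 42.3% when only members with no start site ahead were kept, an alternative chosen after seeing the data. The 6 properties past the threshold became 3 to 7 over single replicates. For words, 0 became 0 to 8 over single replicates, 7 in the optimal list, 5 in windows of 100 bp to each side, 1 with start sites of all genes, 1 with 1 start site per gene and 2 with no start site ahead. Recovery in the replicate 1 list, 87.0%, was 73.6% with 50% reciprocal overlap, 80.9% with summits within 100 bp and 98.6% at a global IDR of 0.001. In the replicate 2 list, 66.4%, it was 52.7%, 60.3% and 95.04%. Some odds ratios that did not pass changed side of 1. For replicate 1 overlap it was 1.10 in the list of replicate 2 alone. For start sites of several genes it was 1.13 at an IDR of 0.001 and 1.02 with a promoter of 200 bp. For genes with an intron, 1.34, it was 0.612 with start sites of all genes (adjusted exact p = 0.0140). The cause was not tested. Depth is unknown and sets no limit that could be given.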
